A study of Arabidopsis thaliana with 18 samples.

Results

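A set of 45 genes was measured in the Italian (IT) ecotype of Arabidopsis thaliana and close to absent from the Swedish (SW) ecotype. They were chosen from the 33557 genes of the deposited table as those with at least 5 FPKM in all 3 IT groups and below 0.5 FPKM in all 3 SW groups. FPKM counts sequenced fragments relative to transcript length and to the fragments mapped, so that genes of different length can be compared. The groups were IT plants kept warm at 22 °C, IT plants after 1 week at 4 °C and IT plants after 2 weeks at 4 °C, and the same 3 conditions for SW plants. Both ecotypes are natural accessions with no transgene or mutation named in the labels, and the plants had grown for 18 days in a 12 h photoperiod before harvest or cold. Whole aerial parts were taken 4 h after lights on, with 3 libraries in each of the 6 groups, and how many plants were pooled for a library is not stated in the labels. The cold was given in dimmer light, and cold plants were older at harvest, so cold, light and age cannot be told apart.

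The rule also names AT1G54040 and AT4G03050 to be left out. Neither met the limits: AT1G54040 was at 2557, 1972 and 959 FPKM in warm, 1-week and 2-week IT plants against 2879, 2469 and 1423 in the SW plants, and AT4G03050 was listed at 0 in the 3 IT groups and reached at most 0.00669 FPKM in SW plants. The mirror rule, at least 5 FPKM in all 3 SW groups and below 0.5 in all 3 IT groups, took 38 genes. At 5 FPKM or more in all 3 IT groups stood 12388 genes, of which 11621 were also at 5 FPKM or more in all 3 SW groups.

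The table held 1 value per gene and group, so no value below has a replicate spread and no test across libraries was possible. The depth behind the values is unknown. Of 5 leaf markers, summed levels were 4996 to 6905 FPKM in the IT groups and 6518 to 8551 in the SW groups, but RBCS1A, the small subunit gene of Rubisco, was listed at 0 in all 6 groups and RCA at 0 in both warm groups. An exact 0 can therefore be a failed estimate in this table. Flower markers summed to at most 3.14 FPKM, seed markers to at most 0.154, and root markers to at most 35.2, almost all of it PYK10. In whole aerial parts, fewer cells of a type and less RNA per cell cannot be told apart.

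Natural accessions of Arabidopsis often differ in genes of the immune system and in young or lineage-specific genes. Intracellular immune receptors of the NLR type, which carry nucleotide-binding and leucine-rich repeat domains, detect pathogen molecules inside the cell and often work in pairs whose genes lie head to head. Receptor-like proteins and receptor-like kinases sense molecules outside the cell at the plasma membrane. Many of these genes stand in tandem clusters that gain, lose and exchange copies between accessions. The TAIR10 build named for the alignment is the genome of another accession, Columbia, so a gene that is deleted, silent or too different from Columbia in SW plants gives the same low value, and these cannot be told apart in FPKM.

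Sequences are shown for 3 members whose levels are given below. MIR775 has the highest mean level of the set. That level belongs to the precursor transcript of 123 bases, and the mature microRNA was not measured. The mature microRNA, at chr1:29422546-29422565 on the plus strand of TAIR10.1, is printed with its seed, bases 2 to 8, in capitals.
MIR775: uUCGAUGUcuagcagugcca
AT2G14285 encodes a protein of 61 residues that is identical to a stretch of RUXF, a small nuclear ribonucleoprotein of the spliceosome. The first 180 coding bases of AT2G14285 and the matching stretch of RUXF, from coding base 106 on, differ at 14 bases, shown in capitals.
AT2G14285: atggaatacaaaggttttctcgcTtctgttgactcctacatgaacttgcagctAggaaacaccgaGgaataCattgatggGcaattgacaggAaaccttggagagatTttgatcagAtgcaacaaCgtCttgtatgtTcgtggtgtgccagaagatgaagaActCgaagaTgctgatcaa
RUXF: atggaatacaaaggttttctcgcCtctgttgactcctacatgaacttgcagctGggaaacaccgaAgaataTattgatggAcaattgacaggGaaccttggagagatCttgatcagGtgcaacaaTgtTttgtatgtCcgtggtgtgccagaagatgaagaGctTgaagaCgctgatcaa
AT4G32208 is a short relative of MTHSC70-2, a mitochondrial heat shock protein 70. Over 120 coding bases, from base 135 of AT4G32208 and base 1722 of MTHSC70-2, they differ at 3, again in capitals.
AT4G32208: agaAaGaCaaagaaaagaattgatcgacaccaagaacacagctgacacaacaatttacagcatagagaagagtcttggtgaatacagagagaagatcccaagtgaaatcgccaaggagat
MTHSC70-2: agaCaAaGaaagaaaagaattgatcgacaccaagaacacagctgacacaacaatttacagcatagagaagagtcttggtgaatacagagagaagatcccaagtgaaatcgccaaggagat
All 5 sequences were read from the RefSeq annotation and genome of the Columbia accession, build TAIR10.1, and not from the plants of this study.

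The levels of the 45 genes, which chose them, were as follows. In warm IT plants they ran over 5.01 to 97.8 FPKM with a median of 15.2, after 1 week of cold over 5.20 to 245 with a median of 12.5, and after 2 weeks over 5.17 to 112 with a median of 10.9. In the SW plants the medians were 0.0482 FPKM in the warm, 0.0663 after 1 week and 0.0435 after 2 weeks, and the highest value was 0.494. The mean IT level had a median of 13.4 FPKM, against 21.7 for all genes at 5 FPKM or more in the IT groups, and 17 members had a mean of 20 FPKM or more. Higher by 2-fold or more in IT than in SW plants on log2(FPKM + 1) were 4.56% of the 19639 genes with at least 1 FPKM in some group in the warm, 4.33% after 1 week and 7.63% after 2 weeks. Of the genes at 5 FPKM or more in the 3 IT groups the shares were 3.53%, 3.79% and 6.18%, and all 45 members were higher by their choice.

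**Figure D1:**
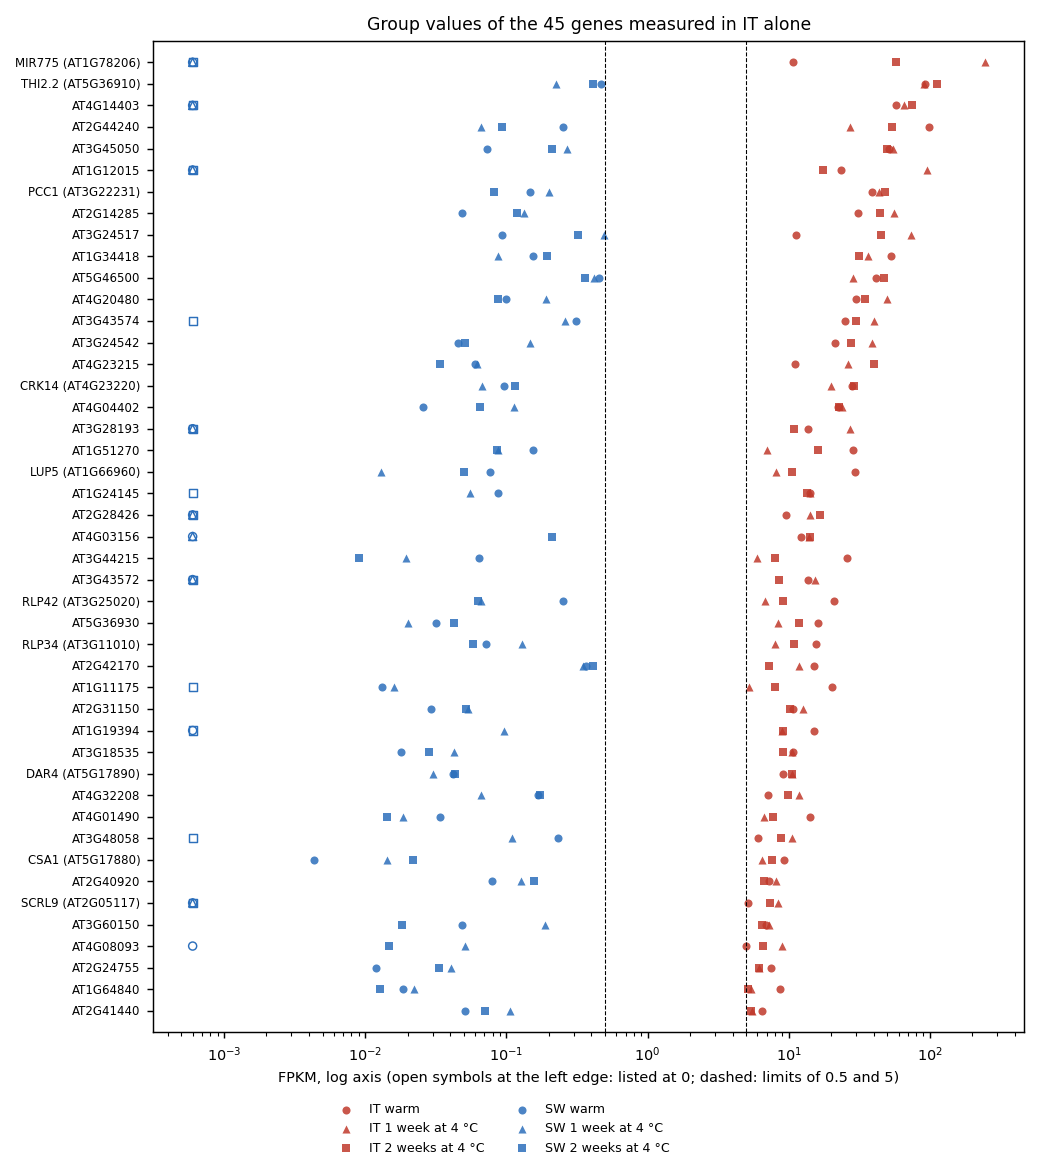
FPKM on a log axis for each of the 45 genes in the 3 IT groups (red) and the 3 SW groups (blue), ordered by mean IT level, with 1 symbol per condition and open symbols for values listed at 0. All red symbols lie at 5 or more and all blue ones below 0.5, as the rule requires, and 7 genes have only open blue symbols.

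In SW plants 7 members were listed at 0 in all 3 groups. They were MIR775, AT1G12015, SCRL9, AT2G28426, AT3G28193, AT3G43572 and AT4G14403, and the 6 of them with an annotation have transcripts under 300 bases. Another 7 were at 0 in 1 or 2 SW groups. The remaining 31 had a value above 0 in every SW group, and their mean IT level was 30.5 to 573 times their mean SW level, with a median of 278. The smallest ratio was that of the actin family gene AT2G42170 (15.2, 11.8 and 7.30 FPKM in warm, 1-week and 2-week IT plants against 0.367, 0.346 and 0.41 in SW plants), and CSA1 had the highest listed ratio. These ratios divide by SW values near 0 whose depth is unknown, so neither their size nor their order is exact. In the whole set 22 members stayed below 0.1 FPKM in every SW group.

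The changes of the small SW values were set beside those of the IT values as a description. For the 31 members above 0 in every group, the log2 ratio of 1 week of cold to warm in SW plants and the same ratio in IT plants had a Pearson r of 0.65 and a Spearman rho of 0.58, and at 2 weeks an r of 0.44 and a rho of 0.37. For the 16 members above 0.05 FPKM in every SW group, r was 0.66 and rho 0.52 at 1 week, and r was 0.60 and rho 0.34 at 2 weeks. AT3G24517, an uncharacterized gene, had 11.3, 72.9 and 45.1 FPKM in warm, 1-week and 2-week IT plants against 0.0934, 0.494 and 0.324 in the SW plants. It was lowest in the warm and highest at 1 week in both ecotypes. Other members differed between ecotypes in this order: AT4G23215 was highest at 2 weeks in IT plants and lowest at 2 weeks in SW plants, and RLP34 was lowest at 1 week in IT plants and highest at 1 week in SW plants. These correlations are over genes that share the same 6 group values, genes are not independent replicates, and many SW values cannot be told from 0.

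Of the 45 members 8 were immune receptors or their remnants. The grouping of members by role was made with their values known. CSA1 (AT5G17880, chr5:5908834-5913317, minus strand) and DAR4 (AT5G17890, also known as CHS3, chr5:5916862-5923494, plus strand) are NLR genes that lie side by side in opposite directions. CHS3 is named for a chilling-sensitive mutant in which the receptor is overactive in the cold, and CSA1 for a mutant with shade-avoidance growth; the proteins are known to act as a pair. CSA1 was at 9.27, 6.44 and 7.60 FPKM in warm, 1-week and 2-week IT plants against 0.00437, 0.0144 and 0.0219 in SW plants. DAR4 was at 9.10, 10.5 and 10.5 FPKM in IT plants against 0.0417, 0.0301 and 0.0435 in SW plants. Both genes thus differed little between conditions within IT plants, with log2 cold ratios of -0.47 and -0.26 for CSA1 and 0.19 at both times for DAR4.

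The genes on either side of the CSA1 and DAR4 pair were present in both ecotypes. PSRP6, a plastid ribosome protein gene on the CSA1 side, was at 369, 628 and 565 FPKM in warm, 1-week and 2-week IT plants against 225, 325 and 372 in SW plants. AT5G17900, on the DAR4 side, was at 18.0, 16.0 and 17.2 FPKM in IT plants against 8.10, 8.09 and 7.53 in SW plants. On mean levels the log2 ratio of IT to SW was 1.02 for AT5G17900, just past 2-fold, and 0.76 for PSRP6. No stretch of 50 bases or more of the CSA1 or DAR4 transcript matched another annotated transcript at 95% identity, and their closest protein relatives were 49.4% and 51.1% identical.

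A second pair of neighbours held CRK14 (AT4G23220, chr4:12154091-12156881), a cysteine-rich receptor-like kinase gene, and the pseudogene AT4G23215, whose transcript was 73.7% identical to that of CRK14 over 88.3% of its length. CRK14 was at 28.3, 19.8 and 29.2 FPKM in warm, 1-week and 2-week IT plants against 0.096, 0.0677 and 0.114 in SW plants. AT4G23215 was at 11.1, 26.4 and 40.1 FPKM in IT plants against 0.0598, 0.0616 and 0.0338 in SW plants. In the cold AT4G23215 had log2 ratios to the warm of 1.18 and 1.77 and CRK14 of -0.49 and 0.04.

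Other genes of the CRK cluster around them also differed between ecotypes. CRK12, 9.06 kb away, was at 10.5, 4.84 and 9.20 FPKM in warm, 1-week and 2-week IT plants against 2.42, 1.57 and 0.211 in SW plants. CRK13 was at 5.01, 4.30 and 14.9 FPKM in IT plants against 1.62, 0.917 and 0.5 in SW plants, and CRK15 at 8.27, 4.83 and 5.81 against 0.657, 0.343 and 0.113. On the far side of CRK15, CRK16 and CRK17 (listed as EMB1290) had mean levels of 3.47 and 11.9 FPKM in IT plants against 5.22 and 12.3 in SW plants. CRK18, the next gene, was again higher in IT plants, at 52.7, 17.9 and 33.0 FPKM in warm, 1-week and 2-week IT plants against 27.5, 8.80 and 9.50 in SW plants. On the other side CRK11 and CRK10 had mean levels of 8.66 and 32.6 FPKM in IT plants against 5.14 and 31.6 in SW plants. No stretch of 50 bases or more of the CRK14 or AT4G23215 transcript matched another annotated transcript at 95% identity. The other CRK genes were not searched in this way, and whether reads were shared among these tandem relatives was not tested.

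AT5G46500 (chr5:18855955-18858552) lies in a cluster of NLR genes. Its annotation text names VICTR, an NLR known from the effect of a small molecule on root growth. Whether AT5G46500 or a neighbour is the VICTR gene itself was not tested. AT5G46500 was at 41.6, 28.6 and 47.1 FPKM in warm, 1-week and 2-week IT plants against 0.453, 0.418 and 0.361 in SW plants. The NLR genes on both sides followed it at lower levels, AT5G46490 with mean levels of 5.01 FPKM in IT and 0.101 in SW plants, and AT5G46510 with 1.99 and 0.00703. The next gene, AT5G46520, went the other way, with a mean of 0.024 FPKM in IT and 0.537 in SW plants. The NLR gene RPS6, on the far side, had 15.0 FPKM in IT and 13.9 in SW plants on average.

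THI2.2 (AT5G36910, chr5:14561743-14562863), which encodes an antimicrobial thionin, and the NLR gene AT5G36930 (chr5:14567444-14573206) formed another close pair, with 2 genes between them. THI2.2 was among the most abundant members, at 92.5, 91.5 and 112 FPKM in warm, 1-week and 2-week IT plants against 0.471, 0.224 and 0.414 in SW plants. AT5G36930 was at 16.1, 8.44 and 11.8 FPKM in IT plants against 0.0318, 0.0202 and 0.0428 in SW plants. The genes between them were not low in SW plants: AT5G36920 had a mean of 6.91 FPKM in IT and 7.45 in SW plants, and AT5G36925 of 2.97 in IT and 7.10 in SW plants.

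The receptor-like proteins RLP34 and RLP42 completed the receptors. RLP42 (AT3G25020, chr3:9116684-9119804), known as the receptor that recognizes fungal polygalacturonases, was at 20.9, 6.76 and 9.07 FPKM in warm, 1-week and 2-week IT plants against 0.252, 0.0663 and 0.063 in SW plants. RLP34 (AT3G11010, chr3:3450496-3453985) was at 15.6, 8.03 and 10.9 FPKM in IT plants against 0.0712, 0.129 and 0.058 in SW plants. Both were highest in warm IT plants, and RLP42 was past 2-fold lower in the cold (log2 ratios of -1.49 and -1.12), whereas RLP34 was not (-0.88 and -0.48). The closest relative of RLP42, RLP40, is 93.5% identical in protein and 10.7 kb away, and was at 3.42, 1.24 and 1.53 FPKM in IT plants against 1.14, 0.669 and 0.693 in SW plants. RLP53, 83.5% identical to RLP34, was at 3.87, 1.76 and 2.66 FPKM in IT plants against 0.258, 0.432 and 0.166 in SW plants.

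**Figure D2:**
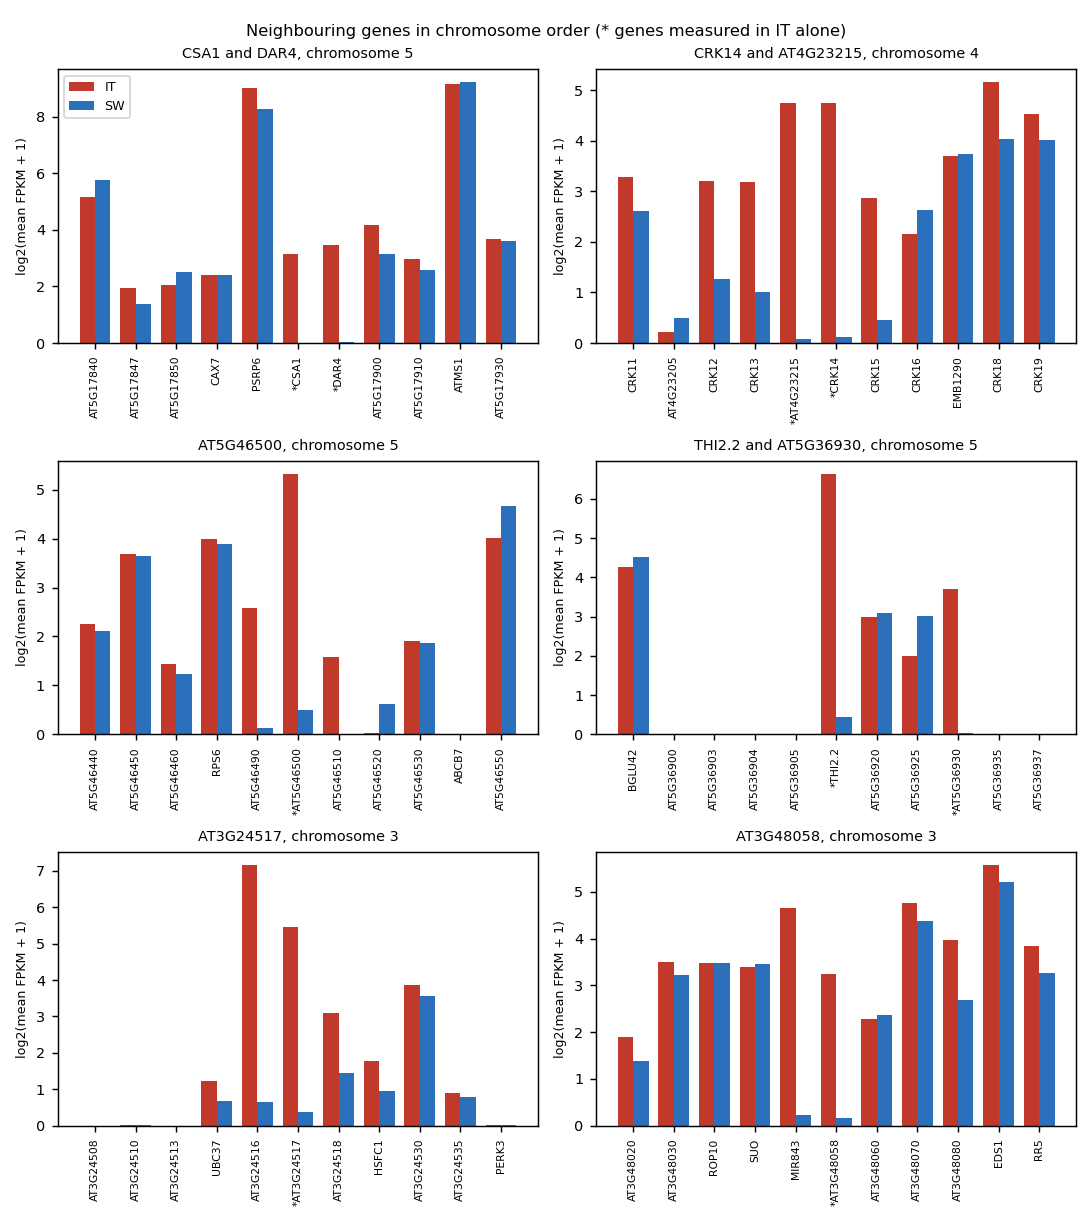
Mean level over the 3 groups of an ecotype, as log2(FPKM + 1), for 6 regions with 11 genes each in chromosome order, IT in red and SW in blue, with asterisks for genes measured in IT alone. CSA1 with DAR4 and THI2.2 with AT5G36930 stand among neighbours with bars for both ecotypes or for neither. Some of these neighbours still differ by 2-fold, AT5G17900 at 17.1 FPKM in IT and 7.91 in SW, and AT5G36925 at 2.97 and 7.10. The bars around CRK14 and AT5G46500 also differ for some of the next genes of the same family.

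Defence-linked genes beside the receptors were THI2.2 and PCC1. SCRL9 was grouped with them as a small cysteine-rich protein, although its annotation names no defence role. PCC1 (AT3G22231), a small membrane-linked protein gene named for its control by pathogens and the circadian clock, was at 38.8, 43.8 and 48.4 FPKM in warm, 1-week and 2-week IT plants against 0.146, 0.201 and 0.0818 in SW plants. Its neighbour AT3G22235, 8.6 kb away, is 98.2% identical over 69.1% of the PCC1 protein, and 44.5% of the PCC1 transcript matched other transcripts at 95% identity or more. The split of reads for PCC1 is therefore uncertain. AT3G22235 was at 514, 284 and 304 FPKM in IT plants against 468, 79.1 and 209 in SW plants, so the relative was present in both ecotypes. SCRL9, a small cysteine-rich protein related to the pollen ligand of self-incompatibility, was at 5.16, 8.45 and 7.33 FPKM in IT plants and listed at 0 in all SW groups.

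Counted by words in the annotation, 3 of the 44 annotated members were disease resistance genes (6.82%, against 0.479% of the annotated genes at 5 FPKM or more in the 3 IT groups). Another 4 matched the words for receptor-like proteins or kinases (9.09% against 0.975%). They are RLP34, RLP42, CRK14 and AT4G23215, which is a pseudogene and is counted again among the pseudogenes below. F-box genes, whose products mark proteins for breakdown, gave 2 members (4.55% against 0.634%). No member was annotated as a cytochrome P450, a UDP-glycosyltransferase, a glucosinolate gene, a protease or its inhibitor, a transporter or a transposon. In that order, these classes made up 0.553%, 0.398%, 0.293%, 3.13%, 2.37% and 0.154% of the annotated genes at 5 FPKM or more in the 3 IT groups. With shares this small, a count of 0 among 44 members says little about the set. The words for uncharacterized, hypothetical or unknown function matched 13 members (29.5% against 8.97%). These include the pseudogenes AT3G44215, AT4G01490 and AT4G08093, which are counted again in the next class. They also include AT1G64840, AT2G44240 and AT3G60150, which are placed below among annotated families, and AT1G64840 is also counted as F-box. Non-coding RNAs and pseudogenes made up 10 (22.7% against 1.27%), transcripts under 300 bases 8 (18.2% against 0.804%) and proteins under 100 residues 9 (20.5% against 3.97%). The gaps depend on the genes chosen for comparison: over all annotated genes of the table, expressed or not, the shares were 22.9% for uncharacterized, 18.7% for non-coding or pseudogene, 4.93% for transcripts under 300 bases and 5.40% for proteins under 100 residues. Resistance genes made up 0.686% of that table, receptor genes 1.07% and F-box genes 2.15%. The mirror set of 38 genes measured in SW plants alone had 0 resistance genes, 1 receptor gene, 13 uncharacterized genes, 9 non-coding RNAs or pseudogenes, 6 proteins under 100 residues and 1 transcript under 300 bases by the same words.

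**Figure D3:**
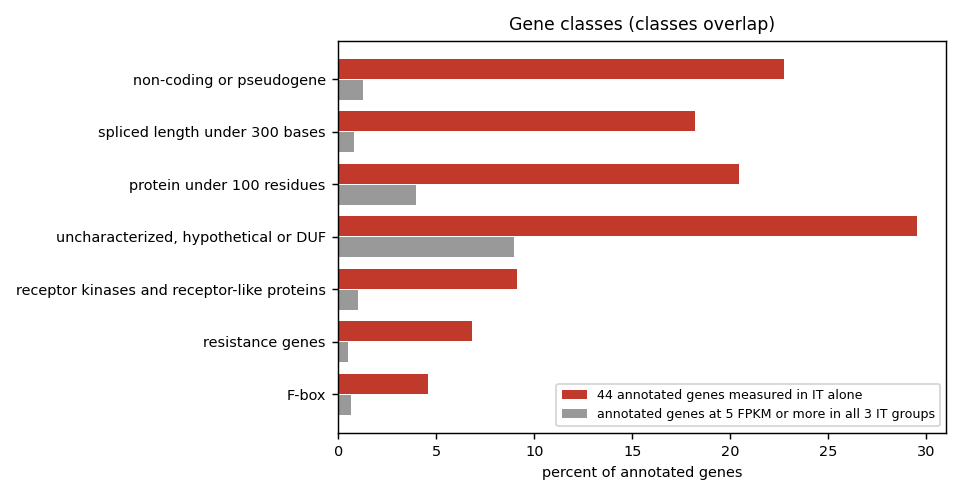
Share of annotated genes in 7 classes, for the 44 annotated members (red) and for the annotated genes at 5 FPKM or more in all 3 IT groups (grey), where a gene can be in several classes. The red bar is longer in each of the 7 classes. For non-coding RNAs and pseudogenes and for the uncharacterized class, the shares over the whole table, 18.7% and 22.9%, are closer to the red bars than the grey ones are.

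Another 17 members encode proteins of annotated families with other roles. AT2G44240, with a domain of unknown function (DUF239), was the most abundant of them, at 97.8, 27.4 and 53.9 FPKM in warm, 1-week and 2-week IT plants against 0.252, 0.0664 and 0.0926 in SW plants. LUP5 (AT1G66960), of the terpenoid cyclase family that folds oxidosqualene into triterpenes, was at 29.4, 8.08 and 10.5 FPKM in IT plants against 0.0764, 0.013 and 0.0498 in SW plants. Its relative LUP2, 78.9% identical, stayed between 2.40 and 2.82 FPKM in all 6 groups. AT1G51270, annotated as a vesicle-associated protein of the VAP family that tethers membranes, was at 28.6, 7.02 and 16.1 FPKM in IT plants against 0.154, 0.0876 and 0.0857 in SW plants. All 3 genes were highest in warm IT plants.

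Relatives in both ecotypes were measured for AT4G04402, AT2G14285 and AT4G32208. AT4G04402, a phosphotransfer protein of the two-component pathway that carries cytokinin signals, was at 22.2, 23.9 and 22.8 FPKM in warm, 1-week and 2-week IT plants against 0.0256, 0.112 and 0.0656 in SW plants. Its relative AHP2, 66.7% identical, was at 61.5 to 86.8 FPKM in IT plants and 67.5 to 90.1 in SW plants. AT2G14285, the copy of RUXF shown above, was at 31.0, 55.3 and 44.6 FPKM in IT plants against 0.0482, 0.133 and 0.119 in SW plants. RUXF was at 126, 231 and 147 FPKM in IT plants against 131, 195 and 163 in SW plants, so the 2 genes, whose proteins are identical over the shared stretch, differed between ecotypes for the copy and not by 2-fold for RUXF. AT4G32208 was at 7.09, 11.8 and 9.82 FPKM in IT plants against 0.166, 0.0664 and 0.173 in SW plants, and MTHSC70-2 at 30.4, 52.6 and 41.6 against 42.0, 58.6 and 54.2. Since 97.9% of the AT4G32208 transcript matched other transcripts at 95% identity or more, its split of reads is uncertain.

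The remaining members with an annotated family covered several cell functions. Between 5.17 and 8.69 FPKM in every IT group were the F-box genes AT1G64840 and AT2G40920, the MADS-box gene AT2G41440 and AT3G60150, annotated as an assembly factor of NADH dehydrogenase. AT2G42170 (actin family), AT2G31150 (annotated as an ATPase), AT3G18535 (a tubulin-tyrosine ligase) and AT4G03156 (a small GTPase-like protein) ran from 7.30 to 15.2 FPKM. For AT4G03156, 91.5% of the transcript matched other transcripts at 95% identity or more, so its split of reads is uncertain. AT4G20480, a putative endonuclease, reached 30.2, 49.9 and 34.6 FPKM in warm, 1-week and 2-week IT plants against 0.0996, 0.192 and 0.088 in SW plants.

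The beta-galactosidase-related genes AT3G24542 and AT3G43574 share sequence although they lie 6524 kb apart on chromosome 3. AT3G24542 was at 21.2, 39.0 and 27.8 FPKM in warm, 1-week and 2-week IT plants against 0.0453, 0.147 and 0.0509 in SW plants. AT3G43574 was at 25.1, 40.4 and 29.8 FPKM in IT plants against 0.309, 0.259 and 0 in SW plants, and its neighbour AT3G43572, also a member, at 13.7, 15.4 and 8.58 against 0 in all SW groups. At 95% identity or more, 70.0% of the AT3G43574 transcript matched elsewhere, with AT3G24542 as its best match, and AT3G43572 was 93.8% identical to AT3G24542 over 83.6% of its length. The 3 members may therefore share reads and are uncertain as separate genes.

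Of the 7 uncharacterized proteins, AT3G24517 (chr3:8938106-8938641) and AT3G45050 were the most abundant. AT3G45050 was steady, at 51.1, 54.5 and 49.3 FPKM in warm, 1-week and 2-week IT plants against 0.0733, 0.268 and 0.21 in SW plants. Beside AT3G24517 lies the uncharacterized gene AT3G24516, which passed the rule in IT plants at 37.8, 224 and 165 FPKM but missed it in SW plants, at 0, 1.26 and 0.488. AT3G24517 overlaps the RNA gene AT3G24518 on the same strand over 71.3% of its length and AT3G24514 on the other strand over all of it, so its reads cannot be assigned with certainty. The others were AT1G19394, AT1G24145, AT2G28426, AT3G28193 and AT3G43572, between 8.58 and 27.3 FPKM in IT plants. AT1G19394 lies almost wholly inside AT1G19396, which also differed, with means of 5.59 FPKM in IT and 0.187 in SW plants.

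Among the non-coding members the largest values were those of very short transcripts. MIR775 (AT1G78206) is listed as the precursor of a microRNA known to target a galactosyltransferase gene. The precursor was at 10.8, 245 and 57.5 FPKM in warm, 1-week and 2-week IT plants and listed at 0 in all SW groups. The snoRNA gene AT1G12015 was at 23.3, 95.4 and 17.6 FPKM in IT plants and also listed at 0 in all SW groups. These transcripts have 123 and 90 bases, and a value over so few bases rests on few possible fragments. The longer RNAs AT1G34418 (52.9, 36.5 and 31.6 FPKM), AT1G11175 (20.4, 5.20 and 7.98) and the antisense RNA AT2G24755 (7.54, 6.12 and 6.18) were all highest in warm IT plants and at most 0.195 FPKM in SW plants. AT2G24755 overlaps 2 genes on the other strand, which were below 1 FPKM in all groups.

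Pseudogenes other than AT4G23215 were AT3G44215, AT4G01490, AT3G48058 and AT4G08093. AT3G44215 was at 25.7, 5.96 and 8.06 FPKM in warm, 1-week and 2-week IT plants against 0.0641, 0.0196 and 0.009 in SW plants, and AT4G01490 at 14.1, 6.65 and 7.78 against 0.0336, 0.0186 and 0.0144. AT3G48058 lies next to MIR843, a microRNA gene at 15.8, 30.0 and 27.3 FPKM in IT plants against 0, 0.527 and 0 in SW plants, which missed the rule only through its 1-week SW value. Of the AT3G48058 transcript, 52.8% matched other transcripts at 95% identity or more, so its split of reads is uncertain too. AT4G08093 was the member closest to the lower limit, at 5.01 FPKM in warm IT plants. AT4G14403, at 57.3, 65.0 and 74.4 FPKM in IT plants and 0 in all SW groups, has no entry in the annotation used.

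The difference between cold and warm IT plants was not used by the rule, except that each IT group had to reach 5 FPKM. After 1 week of cold 4 of 45 members were 2-fold or more higher on log2(FPKM + 1), against 10.2% of all genes kept and 11.2% of genes at 5 FPKM or more in the 3 IT groups. The 4 were MIR775 (log2 ratio 4.39), AT3G24517 (2.59), AT1G12015 (1.99) and AT4G23215 (1.18). Lower by 2-fold or more were 6 of 45, against 7.99% of all genes kept and 6.43% of genes at 5 FPKM or more. These were AT3G44215 (-1.94), AT1G51270 (-1.88), AT2G44240 (-1.80), AT1G11175 (-1.79), LUP5 (-1.74) and RLP42 (-1.49). The median log2 ratio of the members was 0.09, against 0.00 for all genes kept.

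After 2 weeks 3 of 45 members were 2-fold or more higher, against 7.29% of all genes kept and 6.55% of genes at 5 FPKM or more. MIR775 (2.31), AT3G24517 (1.91) and AT4G23215 (1.77) stayed high, while AT1G12015 was at -0.39. Lower were 4 of 45, against 6.52% and 5.03%, namely AT3G44215 (-1.56), LUP5 (-1.40), AT1G11175 (-1.25) and RLP42 (-1.12). At both times 35 members lay within 2-fold. The share of all genes within 2-fold at both times was not counted, so this number does not set the members apart. The median at 2 weeks was -0.07, against 0.04 for all genes kept. The shares of members past 2-fold, 8.89% and 13.3% at 1 week and 6.67% and 8.89% at 2 weeks, each rest on 6 genes or fewer. The 8 immune receptors, a group made with the values known, had a median log2 ratio of -0.51 at 1 week and -0.11 at 2 weeks, against 0.00 and 0.04 for all genes kept. They include the pseudogene AT4G23215, which was higher in the cold, and were not compared with receptor genes outside the set. Of those, CRK10 went from 54.0 FPKM in the warm to 19.9 at 1 week in IT plants and from 59.1 to 18.7 in SW plants. CRK11 went the other way, from 3.85 to 8.29 in IT plants and from 5.14 to 7.83 in SW plants.

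**Figure D4:**
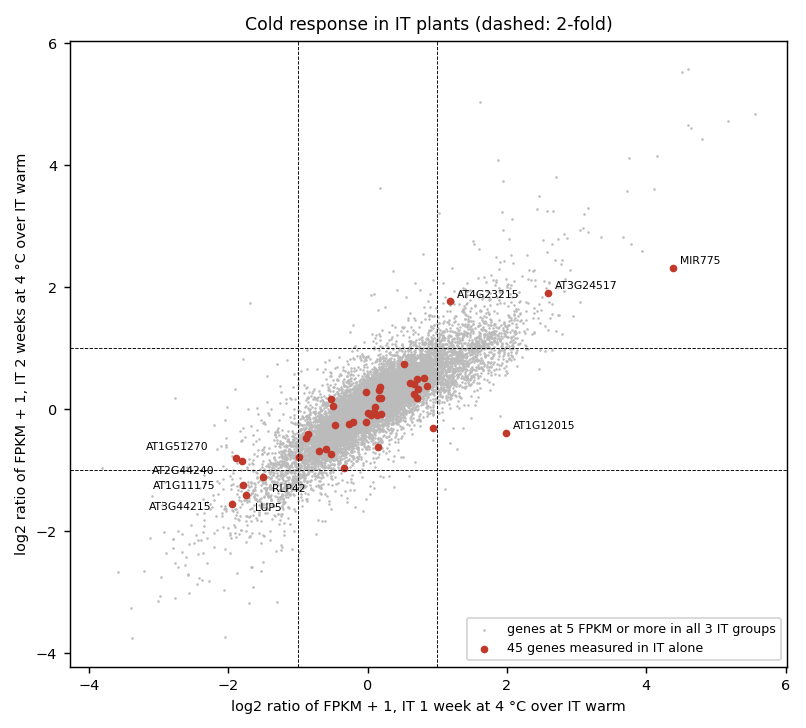
Log2 ratio of FPKM + 1 to warm IT plants after 1 week (horizontal) and 2 weeks (vertical) of cold in IT plants, with the 45 members in red and all genes at 5 FPKM or more in the 3 IT groups in grey, and dashed lines at 2-fold. MIR775 and AT3G24517 are farthest out on the higher side at 4.39 and 2.59, AT1G12015 is high at 1 week alone, and 35 members lie inside the dashed square. The share of grey genes inside it was not counted.

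The members were spread over the genome, with 9 on chromosome 1, 9 on chromosome 2, 13 on chromosome 3, 8 on chromosome 4 and 5 on chromosome 5. Chromosome 3 thus held 29.5% of the annotated members against 20.1% of the genes at 5 FPKM or more, and chromosome 5 held 11.4% against 23.4%. Within 3 gene positions of another member stood 8 of them, in the 4 pairs described above: CSA1 with DAR4, CRK14 with AT4G23215, THI2.2 with AT5G36930, and AT3G43572 with AT3G43574. All but THI2.2 and AT5G36930 were direct neighbours. The mirror set of 38 genes held 4 genes in 2 such pairs.

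The genes beside the members were described in the same way, with no test. The 2 nearest genes on each side that are not members came to 162 genes, of which 87 had a mean of at least 1 FPKM in an ecotype. Of these 87, 19 (21.8%) were 2-fold or more higher in IT, 3 (3.45%) were lower and 65 (74.7%) lay within 2-fold. Among all 18881 genes at that level 4.59% were higher in IT, 3.31% lower and 92.1% within 2-fold. Leaving out flanking genes that overlap a member, 15 of 82 (18.3%) were higher in IT. For 27 of 44 members, at least 1 of these flanking genes had 5 FPKM or more in all 6 groups, and for 8 of 44 such genes stood on both sides. In the whole series 11621 of 33557 genes were at that level. The same count was not made around genes outside the set, so these counts do not show whether expressed neighbours were common or rare.

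Overlap with other annotated genes could move reads between genes for 8 members, in 4 cases on the same strand. In 3 cases the overlap covered at least 50% of the member. Of 34 protein-coding members, 28 had a protein relative, with 37.0% to 100% identity and a median of 65.1%. Of the 27 relatives in the table, 16 had a mean of at least 1 FPKM in an ecotype. Of these 16, 11 lay within 2-fold between ecotypes, 5 were higher in IT and 0 were lower, and 2 of the 5 were the members AT3G24542 and AT3G43574. At the level of transcripts, 34 of 44 members had no stretch of 50 bases or more at 95% identity elsewhere. Over 50% of the length was at that identity for 4 members, AT4G32208, AT4G03156, AT3G43574 and AT3G48058.

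**Figure D5:**
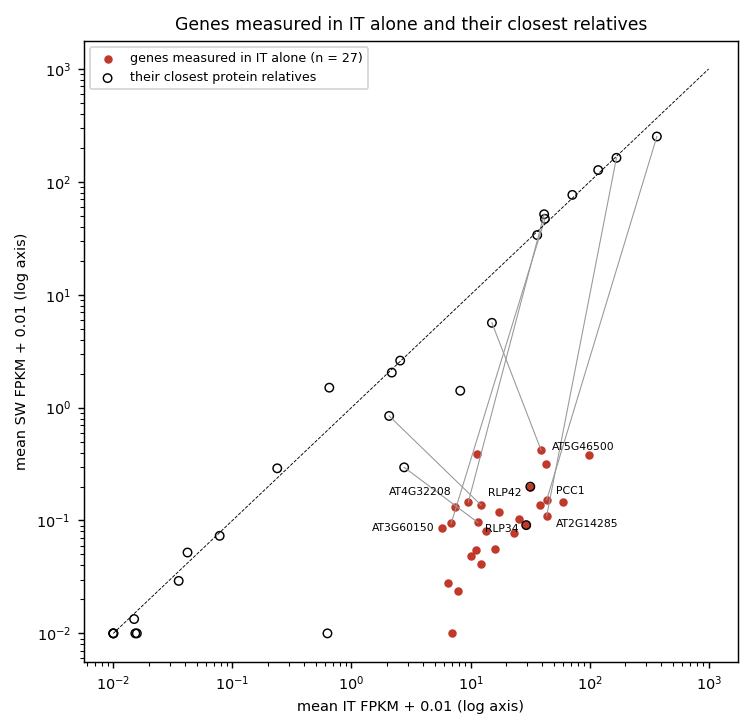
Mean IT FPKM (horizontal) and mean SW FPKM (vertical), both plus 0.01 on log axes, for the 27 members whose closest protein relative is in the table (red) and for those relatives (open), with a dashed line of equality and grey lines that join 7 members to their relatives. The relatives of AT2G14285, PCC1, AT4G32208 and AT3G60150 lie near the line of equality, while those of RLP34 and AT5G46500 lie below it.

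Genes just inside and outside the limits had similar values. The lowest IT values inside were 5.01 FPKM for AT4G08093, 5.16 for SCRL9, 5.17 for AT1G64840, 5.20 for AT1G11175 and 5.44 for AT2G41440. Just outside were AT2G03330 at 4.996, LBD26 at 4.83, AT1G67365 at 4.52, AT1G56000 at 4.46 and AT4G19829 at 4.39. The highest SW values inside were 0.494 for AT3G24517, 0.471 for THI2.2, 0.453 for AT5G46500, 0.41 for AT2G42170 and 0.309 for AT3G43574. Just above the limit in SW plants were MIR843 at 0.527, the cell-wall-associated kinase gene WAK2 at 0.535, AT1G49032 at 0.584, EDA36 at 0.635 and the floral MADS-box gene SEP4 at 0.647. WAK2 was at 110 FPKM in warm, 32.6 in 1-week and 55.4 in 2-week IT plants.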

How the data were processed

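Libraries of 18 samples were sequenced by the authors, 3 for each of 6 groups. Alignment and quantification used TopHat 1.4.1 and Cufflinks 2.1.1 with Cuffdiff on the build TAIR10, per the submitters' processing notes. These state neither the settings nor how libraries of a group became a single value. The deposited table holds FPKM values, 1 per gene and group per the file headers. Values were used as deposited. Without replicate values no test was made: ratios are log2(FPKM + 1), a gene was called at 2-fold or more, and shares are over the 19639 genes with at least 1 FPKM in some group.

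The members and lists were chosen with earlier results of these data known. Gene names, types and coordinates came from RefSeq's TAIR10.1 annotation, whose transcript models may differ from those the authors used. It matched 32813 loci of the table by locus and left 744 unmatched. The longest transcript and protein of each gene were compared with BLAST 2.17.0, taking the best match outside the gene's own position; other steps used Python 3.11.15 with pandas 2.3.3. The rule and the calls were run on simulated data with planted differences far past the limits. Such a run checks the steps alone and says nothing about lost or shared reads or values near the limits.

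Genes named were the 12 members with the highest mean IT level, up to 6 members each way past 2-fold at each cold time, members near each other, up to 4 members of each annotation class, the 5 genes on each side of both limits, and the relatives of these. The remaining members were named to account for the whole set, and neighbours such as the CRK, NLR, AT3G24516 and MIR843 genes were chosen after their values were seen. Alternatives were other limits, 2 other pseudocounts, 2 scalings, protein-coding genes alone and members of 300 bases or more.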

Additional observations from a re-analysis of the deposited data

How the results depend on the processing

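No paired analysis was possible because the table holds 1 value per group and no value per library, and for the same reason leaving out a replicate was not run. The set held 45 members under both scalings; it held 93 with a limit of 2 FPKM in IT, 21 with 10 FPKM, 22 with SW below 0.1 FPKM, 107 by the warm values alone, 92 by 1 week alone and 133 by 2 weeks alone. The mirror set of 38 genes held 76, 15, 20, 72, 79 and 73 under the same changes. Among protein-coding members 1 gene was higher in the cold at 1 week, 1 was higher and 2 were lower at 2 weeks. Among members of 300 bases or more, a choice made after the data were seen, 2 were higher at 1 week. With 10 FPKM asked for in all IT groups, 1 was lower at 1 week and 0 at 2 weeks, and the 2-week median was 0.19; lower genes that end under 10 FPKM are left out by construction. Without a filter, 5.97% of all genes were higher and 4.68% lower at 1 week, and 4.27% and 3.82% at 2 weeks, because unexpressed genes enter the total. Of 360 recomputed single-gene ratios 8 crossed the 2-fold limit, all of AT4G01490 and AT2G42170, and 0 past 2-fold changed sign. The 1-week median was -0.02 under upper-quartile scaling. With 1 value per group of unknown depth, values near 0 in SW plants cannot be told from 0.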
